A study of Homo sapiens and Mus musculus with 12 samples.

Results

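The members are the loci of the 8 genes that encode the LSD1-CoREST complex: KDM1A, RCOR1, RCOR2, RCOR3, HDAC1, HDAC2, HMG20B and PHF21A. They were taken by name from 20033 protein-coding genes of GENCODE release 44. In each of 5 ChIP-seq peak lists, all peaks that overlapped the gene body or the 10 kb on either side of it (the window, GRCh38) were assigned to the locus. The comparison asks whether the complex sits at its own genes, and whether GFI1 and SPI1 peaks lie there as well.

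Chromatin came from 2 human leukemia lines, the monocytic line THP1 and the line K562. In THP1 cells, labelled with no treatment, SPI1 and GFI1 were immunoprecipitated. The K562 cells stably expressed Cas9 from a lentivirus and a guide RNA, which in the group sg-NT has no target and in the group sg-LSD1 cuts the LSD1 gene, so that both groups share Cas9 and differ in the guide. In sg-NT cells the antibodies were against LSD1 and against GFI1, in sg-LSD1 cells against GFI1, each with 1 library. The sg-LSD1 cells were made with 1 guide, and KDM1A, the gene that this guide cuts, is itself a member. No LSD1 library of sg-LSD1 cells was analysed here, so the LSD1 peaks have no check in cells depleted of the protein. With 1 library each, no value below has a replicate check and no test between conditions was possible. Peak lists hold no expression values, so the identity of the lines was not checked against marker genes.

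LSD1, encoded by KDM1A, removes methyl groups from mono- and dimethylated lysine 4 of histone H3 and thereby silences enhancers and promoters. It does not work alone. An RCOR protein (CoREST) ties the demethylase to the nucleosome and to the histone deacetylases HDAC1 and HDAC2, and HMG20B (BRAF35) and PHF21A (BHC80) are accessory subunits that bind DNA or unmethylated histone H3 tails. The zinc-finger repressors GFI1 and GFI1B recruit this complex through their SNAG domain in blood cells, while SPI1 (PU.1) activates myeloid genes.

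LSD1 peaks of sg-NT K562 cells were called at 5 of the 8 loci, namely KDM1A, RCOR1, RCOR3, HMG20B and PHF21A. RCOR2, HDAC1 and HDAC2 had 0. Among all 20033 protein-coding genes, 24.3% had at least 1 LSD1 peak in the same kind of window (4860 genes). The 5 loci held 9 LSD1 peaks, of which 5 lay at PHF21A and 1 at each of the other 4 loci. Of the 9 summits, 6 lay inside the member gene, and for 6 the nearest protein-coding transcript start was that of the member. None of the 8 windows held a GFI1 peak in either line or an SPI1 peak in THP1 cells, where SPI1 was measured. Among all protein-coding genes, a GFI1 peak lay in 13.9% of the windows in THP1, 2.14% in sg-NT K562 and 0.704% in sg-LSD1 K562 cells, and an SPI1 peak in 7.48%. The map of the 8 loci shows where the peaks lie.

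**Figure D1:**
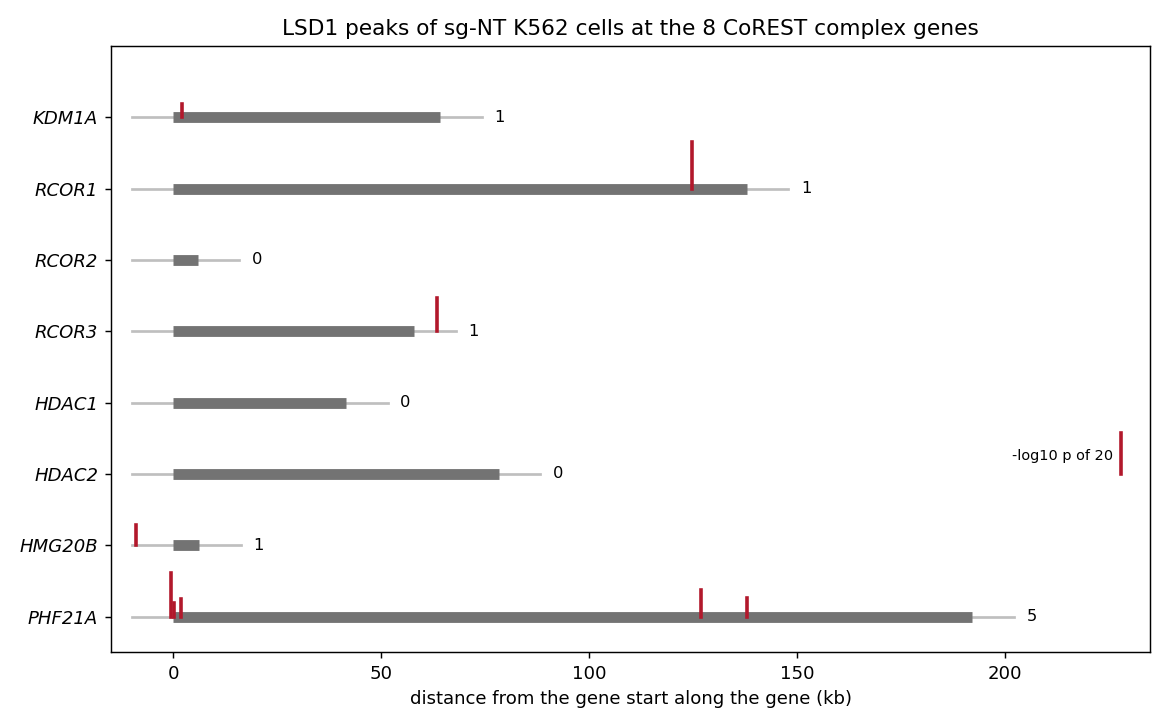
LSD1 peaks of sg-NT K562 cells along the 8 genes. The horizontal axis is the distance in kb from the gene start in the direction of transcription, thick bars are gene bodies, thin lines the 10 kb on either side, and red marks are peak summits whose height is the −log10 p (scale mark on the right). The number beside each gene is its count of peaks, 5 at PHF21A, 1 at KDM1A, RCOR1, RCOR3 and HMG20B and 0 at the other 3 genes.

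KDM1A lies on the plus strand of chromosome 1 from 23019443 to 23083689. Its only LSD1 peak spanned 23021279 to 23021628, with the summit at 23021457, 2014 bp downstream of the gene start. The summit lay in intron 1 of the canonical transcript (23019948 to 23030468), and also within an antisense lncRNA gene (ENSG00000240553). The peak was weak, 4.91-fold over background (−log10 p 6.45). Of the 6548 LSD1 peaks, 93.7% had a −log10 p at least as high. It rested on 7 fragments over the summit (exact Poisson interval 2.81 to 14.4, counting error only) against a background of 0.63, the lowest in the list. It was lost when the limit was raised to a −log10 p of 8. Its repeat content was read from the 101 bases centred on the summit. Of the 78 words of 24 bases in this window, 0 occurred only once in the reference genome, and the median word occurred 314 times. Over the whole peak, 34.6% of the words were unique. The stated mapping parameters name no filter on mapping quality, and the part of repeated sequence in this peak was not tested.

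The CoREST scaffold is encoded by 3 paralogs, RCOR1, RCOR2 and RCOR3. RCOR1, the form best known in blood cells, lies on chromosome 14 from 102592649 to 102730561 and held the strongest peak of the 8 loci. It spanned 102717233 to 102717560, 12.3-fold over background (−log10 p 22.7), with 19 fragments over the summit (interval 11.4 to 29.7). Its background of 0.63 was the lowest in the LSD1 list (the strongest PHF21A peak had 20 fragments over 0.892). The RCOR1 peak ranked 789 of 6548 LSD1 peaks. The summit lay in intron 8 of the canonical transcript, 124754 bp downstream of the gene start, and no exon of any transcript covered it. The nearest protein-coding start was that of the downstream gene TRAF3, relative to which the summit lay at -60046 bp (TRAF3 and TRAF5 were named after their values were seen). All 78 words of the summit window were unique in the genome. The window (5′ to 3′ on the plus strand, GRCh38, chr14:102717353-102717453) is shown because this was the strongest peak, with the RUNX core in capitals and all other bases in lower case.
RCOR1 summit: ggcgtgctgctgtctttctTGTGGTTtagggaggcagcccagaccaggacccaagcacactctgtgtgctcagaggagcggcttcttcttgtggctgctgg

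RCOR3, on chromosome 1 from 211258377 to 211316385, had 1 LSD1 peak outside the gene. It spanned 211321734 to 211321986, 5.35 kb past the gene end, and its summit lay at -4765 bp from the nearest TRAF5 start. Its fold was 8.85, its −log10 p 16.4 and its fragment number 18 (interval 10.7 to 28.4). The summit window was again repeated in part. Its median word occurred 3 times in the genome, and 32.1% of the words were unique. Over the whole peak, the median word occurred 41.5 times.

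RCOR2, a short gene of 5.93 kb on chromosome 11 (63911230 to 63917164), had no LSD1 peak in its window. The nearest lay 34.6 kb upstream (63951804 to 63952046, fold 4.87, −log10 p 6.75). Of the 3 scaffold genes, therefore, RCOR1 was the only one with an LSD1 summit inside the gene.

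Neither deacetylase gene held a peak. At HDAC2 (chromosome 6, 113933028 to 114011308), the nearest LSD1 peak lay 11.6 kb past the gene end, just outside the window (fold 5.21, −log10 p 7.29). At HDAC1 (chromosome 1, 32292083 to 32333635), it lay 49.9 kb upstream (fold 4.89, −log10 p 6.42). The peak just inside the window limit was that of HMG20B, 8.7 kb from the gene. The weakest peaks of the LSD1 list rested on 6 fragments, and enrichment below the calling threshold at HDAC1, HDAC2 or RCOR2 cannot be read from a peak list.

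HMG20B, the BRAF35 subunit, is a short gene on chromosome 19 (3572777 to 3579088). Its single LSD1 peak spanned 3563777 to 3564077, 8871 bp upstream of the gene start at the summit. This position lies within the body of the neighbouring gene MFSD12, which encodes a lysosomal transporter, and the nearest protein-coding start was an MFSD12 start, from which the summit lay at -6320 bp. The fold was 6.33, the −log10 p 9.93 and the fragment number 12 (interval 6.2 to 21.0), each a little below the median of the list (6.99, 11.3 and 13). All words of the summit window were unique. The window (plus strand, chr19:3563856-3563956) held the AP-1 core, in capitals.
HMG20B summit: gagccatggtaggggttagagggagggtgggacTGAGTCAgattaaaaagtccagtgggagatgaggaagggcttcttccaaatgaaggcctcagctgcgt

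PHF21A, the subunit that reads unmethylated histone H3, is the longest member (192 kb, minus strand of chromosome 11, 45929319 to 46121454) and the one with a peak at its promoter. Its 5 LSD1 peaks fell into 2 sets. A cluster of 3 lay around the start of the gene, with summits from 420 bp upstream to 1831 bp downstream of it. The other 2 lay far downstream in intron 6. At least 5 LSD1 peaks were found in 0.374% of all protein-coding gene windows (75 genes) and in 0.774% of those in the longest of 5 length classes.

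The strongest of the 3 promoter peaks spanned 46121633 to 46122342, with its summit 420 bp upstream of the start. It was 11.1-fold enriched (−log10 p 21.1) with 20 fragments (interval 12.2 to 30.9), and it was 710 bp wide against a median of 350 bp in the list. The second spanned 46121109 to 46121356 in exon 1, with the summit 127 bp downstream of the start. Its fold was 4.87, its −log10 p 6.75 and its fragment number 9. The third spanned 46119344 to 46119706 in intron 1, 164 bp from the start of a shorter protein-coding transcript, with 9 fragments (fold 6.06, −log10 p 8.69). With the limit raised to 8, the exon 1 peak was no longer called, while the others of this cluster were. The upstream window (plus strand, chr11:46121824-46121924) held none of the 5 motif cores and 7 CpG dinucleotides. The intron 1 window (plus strand, chr11:46119573-46119673) began with the GFI1 and GFI1B core, in capitals, and was the only one of the 9 that held it.
PHF21A upstream summit: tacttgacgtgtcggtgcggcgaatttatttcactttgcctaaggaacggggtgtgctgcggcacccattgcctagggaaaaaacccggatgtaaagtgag
PHF21A intron 1 summit: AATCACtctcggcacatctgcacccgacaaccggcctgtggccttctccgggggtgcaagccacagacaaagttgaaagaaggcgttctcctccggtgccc

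The 2 peaks in intron 6 (45979967 to 46076753) spanned 45983095 to 45983572 (fold 5.83, −log10 p 8.81, 11 fragments) and 45994370 to 45994782 (fold 7.67, −log10 p 12.8, 14 fragments). They lay 138083 and 126920 bp downstream of the gene start. All words of the 5 summit windows at PHF21A were unique in the genome. A summit within 1000 bp of a protein-coding transcript start was found at 1 of the 8 genes, PHF21A, and at 8.48% of all protein-coding genes. In the other lists no member had such a promoter peak, against 1.3% of all protein-coding genes for SPI1 and 4.68% for GFI1 in THP1 cells, and 0.304% for GFI1 in sg-NT and 0.0998% in sg-LSD1 cells. For LSD1, with 5000 bp, KDM1A was added, and 13.3% of all protein-coding genes had such a peak.

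Within the LSD1 list, the 9 peaks were of ordinary strength. Their folds ranged from 4.87 to 12.3 with a median of 6.33, and their −log10 p from 6.45 to 22.7 with a median of 9.93. Of the 9, 4 had a fold above the list median and 2, at RCOR1 and PHF21A, were above the upper quartile of −log10 p (16.6). The number of fragments over a summit ranged from 7 to 20. The rank plot shows the 9 peaks spread from rank 789 to rank 5985 of the 6548 LSD1 peaks, with none at either end of the list.

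**Figure D2:**
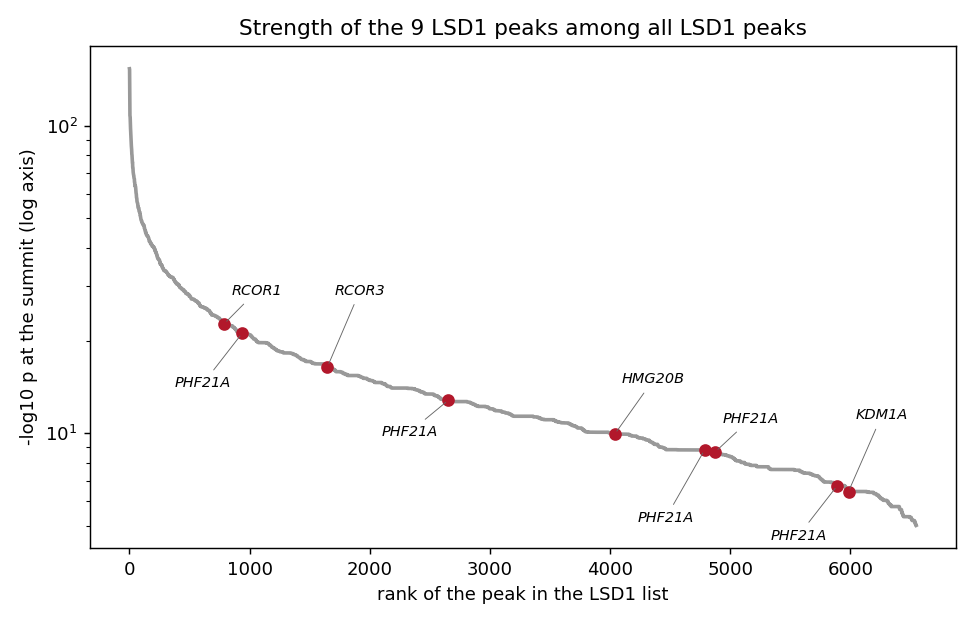
Strength of the LSD1 peaks of sg-NT K562 cells. The grey line gives the −log10 p at the summit (log axis) of all 6548 LSD1 peaks by rank, and red points are the 9 peaks at the complex genes, from RCOR1 at rank 789 to KDM1A at rank 5985.

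Longer windows hold more peaks, so the counts were set beside window length. In 5 classes of protein-coding genes of equal size by window length, the share with an LSD1 peak went from 16.2% in the shortest (up to 27.5 kb) to 23.4%, 25.3%, 26.9% and 29.4% in the longest (over 111 kb). RCOR1 and PHF21A were in the longest class and both had a peak. KDM1A, RCOR3, HDAC1 and HDAC2 were in the next longest, where 2 of 4 had a peak. RCOR2 and HMG20B were in the shortest, where 1 of 2 had a peak. The 8 windows covered 744 kb and held 1.21 LSD1 peaks per 100 kb (exact Poisson interval 0.553 to 2.3, counting error only), and the windows of all protein-coding genes held 0.332 (interval 0.323 to 0.341). PHF21A carried much of the value of the 8 windows, with 5 of the 9 peaks, and the intervals do not cover clustering of peaks within a gene. Without PHF21A, the density was 0.752 (interval 0.205 to 1.92), and that interval includes the value of all genes. Without the KDM1A and RCOR3 peaks, whose summit windows are repeated sequence, 7 peaks at 3 loci remained, and with the same limit on all LSD1 peaks 20.4% of protein-coding genes had 1. When each peak was given to the gene with the nearest protein-coding start alone, 3 members had a peak, KDM1A and PHF21A with those above and HDAC2 with the peak just past its window, against 21.2% of all protein-coding genes. With 50 kb on either side, all 8 loci had an LSD1 peak and 1 (RCOR1) had an SPI1 peak, against 41.1% and 15.5% of all protein-coding genes. In the LSD1 list as a whole, 21.1% of the summit windows had words that occurred a median of more than 1 time, against 2 of the 9 here.

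**Figure D3:**
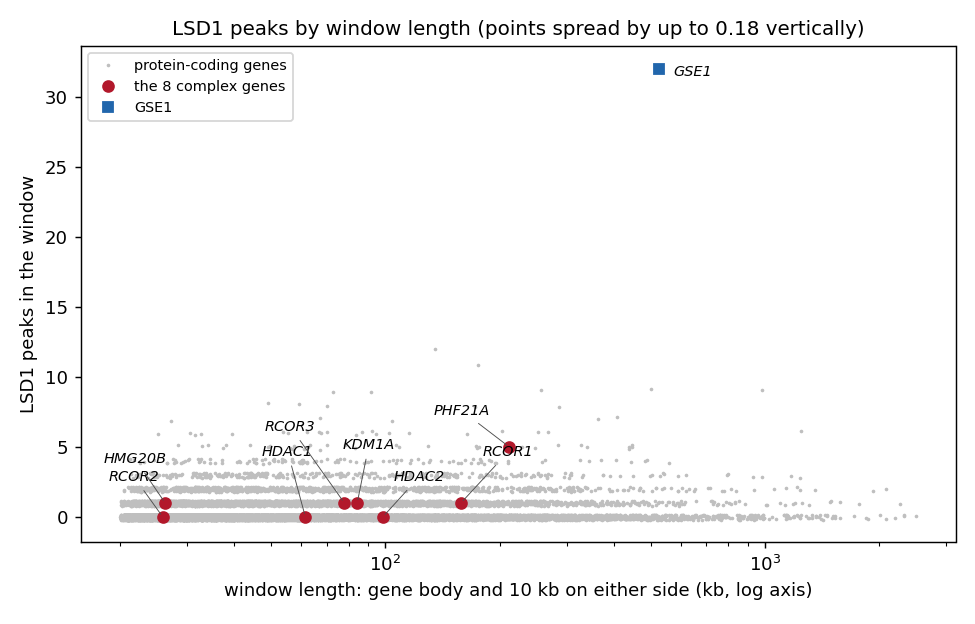
Number of LSD1 peaks of sg-NT K562 cells by window length (kb, log axis) for all 20033 protein-coding genes (grey), the 8 complex genes (red) and GSE1 (blue). PHF21A with 5 peaks stands apart from the other 7 complex genes, which have 0 or 1, and GSE1 has 32.

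GFI1 was not called at any of the 8 loci. The paper attributes its low number of GFI1 sites in K562 cells to technical limits of the available antibodies. GFI1 below the calling threshold cannot be read from these lists. At the shares of all protein-coding genes given above, 0 of 8 is not a result about the members. Likewise, in sg-NT cells 0 of the 9 LSD1 peaks had 1 bp or more in common with GFI1, while 5.96% of all LSD1 peaks did. With no GFI1 or SPI1 peak in any of the windows, this shared count could only be 0. The same holds for GFI1 of sg-LSD1 cells (1.08% of all LSD1 peaks), GFI1 of THP1 cells (4.6%) and SPI1 of THP1 cells (0.779%). Since GFI1 had 0 peaks here in sg-NT cells, the lists cannot show whether the guide against LSD1 changed GFI1 binding at these genes, the cut KDM1A gene included.

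The GFI1 peak nearest to a member in sg-NT cells lay 102 kb downstream of PHF21A (45826451 to 45826855 on chromosome 11, fold 22.6, −log10 p 49.4). For KDM1A, the nearest GFI1 peak lay 260 kb downstream in both lines, at the same site. In sg-NT K562 cells it spanned 23343498 to 23343755 (fold 7.32) and in THP1 cells 23343524 to 23343855 (fold 9.92). In sg-LSD1 cells, the nearest GFI1 peak to any member was 430 kb from HMG20B, in a list of 160 peaks. Over the 8 genes, the median distance to the nearest peak was 7.02 kb for LSD1, 793 kb for GFI1 in sg-NT cells, 2716 kb for GFI1 in sg-LSD1 cells and 175 kb for GFI1 in THP1 cells. These distances move with the numbers of peaks in the lists (6548, 498, 160 and 3461).

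SPI1, with 1846 peaks in THP1 cells, was likewise called at 0 of the 8 loci. The nearest SPI1 peak lay 37.8 kb past the end of RCOR1 (102768330 to 102768638 on chromosome 14, fold 7.77, −log10 p 13.4), and the next nearest 59.4 kb past the end of HDAC2 (fold 6.80). For the other 6 genes it was 423 kb (RCOR2) to 1478 kb (RCOR3) away. No LSD1 peaks of THP1 cells were analysed here, so whether LSD1 lies at these genes in that line is not known.

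**Figure D4:**
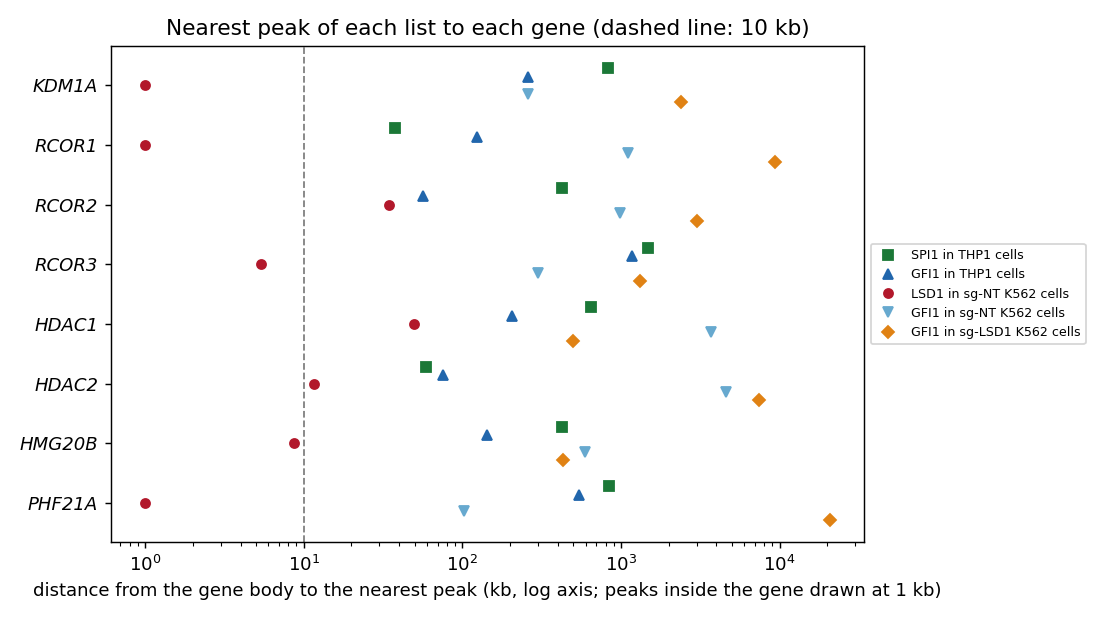
Distance in kb (log axis) from each gene body to the nearest peak of each of the 5 lists, with peaks inside the gene drawn at 1 kb and the 10 kb limit as a dashed line. LSD1 peaks are inside KDM1A, RCOR1 and PHF21A and within 10 kb of RCOR3 and HMG20B, and all GFI1 and SPI1 peaks are farther than 10 kb.

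The summit windows of the 9 LSD1 peaks (101 bp, both strands, overlaps between motifs allowed) were searched for 5 cores. The GFI1 and GFI1B core AATCAC was in 1 of 9 (5.24% of all 6548 LSD1 windows), the RUNX core TGTGGTT in 1 (4.03%) and the AP-1 core TGANTCA in 1 (5.3%). The GATA core GATAAG, which 12.5% of all LSD1 windows held, and the SPI1 core GAGGAAGT (1.04%) were in 0 of 9. Such a match is a description of the letters and not a bound site. The median GC content of the 9 windows was 54.5% (39.6% to 61.4%), against 50.5% over the list.

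Genes of related complexes were examined in the same windows, in 7 lists with 59 genes in all. Of these, 18 had an LSD1 peak (30.5%), against 24.3% of all protein-coding genes. The share was not even over the lists. Of 10 factors that recruit LSD1, 6 had a peak, and of 10 genes for subunits of H3K4 methyltransferases, 5 did. Of the other partners of the complex 2 of 9 had a peak, of the NuRD genes 2 of 11, of the SIN3 genes 2 of 10 and of the H3K4 demethylases of the KDM5 family 0 of 3. The differences between these lists were not tested.

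Among the recruiters, GFI1B had 6 LSD1 peaks. The strongest of them (132945246 to 132945688 on chromosome 9, fold 18.4, −log10 p 39.2) lay 51 bp from a start of the neighbouring gene TSC1. Its summit was also 125 bp from a GFI1B transcript start, but outside the canonical GFI1B transcript, whose intron 1 begins at 132978842. Its place in the GFI1B window therefore depends on the long transcripts in the annotation. A weaker peak (132978556 to 132979008, fold 6.95) reached into this intron and had its summit 14 bp from another GFI1B start. By strength, RUNX1 (strongest fold 12.9, in an intron) and TAL1 (fold 12.2, past the gene end) followed GFI1B. Among the methyltransferase genes, SETD1B held a peak in intron 6 (fold 15.6, −log10 p 35.1). SETD1A had 4 peaks, the strongest with a fold of 13.6 lying past its end, and KMT2A had 2, the stronger centred 154 bp upstream of its start (fold 7.94). GATAD2A (fold 11.6) and MTA3 (fold 11.2) were the NuRD genes with a peak. At the MTA3 site in intron 6, a GFI1 peak was called in sg-LSD1 cells (42649530 to 42649923 on chromosome 2, fold 8.87) and none in sg-NT cells. MTA3 was the 1 gene of the 59 with GFI1 in the sg-LSD1 list, against 0.704% of all protein-coding genes. With 1 library each, this difference was not tested. SAP30 (fold 7.07) and BRMS1 (fold 4.91) had peaks among the SIN3 genes.

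The partners with a peak were GSE1, a subunit found with HDAC1, HDAC2 and LSD1, and RREB1, a zinc-finger factor that binds CtBP. GSE1, on chromosome 16 from 85169525 to 85676204, had 32 LSD1 peaks, the highest number of all 20033 protein-coding genes. Their folds ranged from 4.19 to 18.4 with a median of 7.81, and 30 of them stayed with the limit raised to 8. Most lay before the start of the canonical transcript (85613322 to 85676200), whose own window held 3, so the number depends on the long transcripts in the annotation. In sg-NT cells, 1 GFI1 peak was called in GSE1 (85382054 to 85382357, fold 6.04). It overlapped an LSD1 peak there (85381487 to 85382363, fold 17.2), and 0 were called in sg-LSD1 cells. RREB1, on chromosome 6 from 7107597 to 7251980, had 6 LSD1 peaks, the strongest 664 bp upstream of its start (fold 15.5, −log10 p 40.6). Its GFI1 peak of sg-NT cells (7165239 to 7165645) also overlapped an LSD1 peak, and no GFI1 peak was called in the sg-LSD1 list. GSE1 and RREB1 were the only ones of the 59 genes with GFI1 in the sg-NT list, a share near the 2.14% of all protein-coding genes. The GFI1 peaks at GSE1 and RREB1 rested on 10 and 12 fragments. In the shorter sg-LSD1 list (160 GFI1 peaks against 498), only 0.704% of all protein-coding genes had a peak. With 1 library each, the difference between the groups at GSE1 and RREB1 was not tested.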

How the data were processed

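The peak lists of 5 libraries (SPI1 and GFI1 in THP1 cells, LSD1 and GFI1 in sg-NT K562 cells, GFI1 in sg-LSD1 K562 cells) were used. Input libraries and murine H3K4me1 libraries were not used here. Per the paper's methods and the submitters' processing notes, reads were trimmed with Trim Galore 0.6.1, mapped to GRCh38 with Bowtie2 2.5.4 and freed of duplicates with Picard 3.1.0. Peaks were called per library with MACS2 2.2.9.1 (p threshold 1e-05), and blacklisted regions were removed. Use of the input as control is not given in the sources used here. The authors deposited for each peak the fold (ratio of pileup to local background at the summit) and the p-value and q-value on a −log10 scale. The score that the authors deposited repeats the −log10 p, multiplied by 10 without decimals, and entered no result.

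Windows were built from GENCODE release 44 for genes on chromosomes 1 to 22, X and Y. The files hold no read totals. MACS2 gives the fold as (pileup + 1) / (background + 1) with a Poisson p, which was solved for whole fragments (100% of peaks in each list, and 100% of 2000 simulated peaks). Intervals are 95% and cover counting error only. Words of 24 bases were counted on both strands of hg38. Alternatives are given in the closing section. The 8 members are named with all peaks in their windows. In each other list, up to 3 genes with the highest −log10 p of an LSD1 peak and all genes with a GFI1 peak of sg-NT cells are named. One list and some sequences are not reported here. Members and lists were chosen with earlier results of these data known. Calculations used Python 3.11.15, numpy 2.4.6, pandas 2.3.3, scipy 1.17.1 and matplotlib 3.10.9.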

Additional observations from a re-analysis of the deposited data

How the results depend on the processing

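Of 104 recomputed values, 30 moved by more than 1.5 times (counts) or out of the counting interval (shares, density). Of the other 74, 62 were counts of 0, which most of the alternatives could not change, so they say little about stability. The number of complex genes with an LSD1 peak moved most with the window, from 5 to 3 for the gene body alone (14.6% of all protein-coding genes) and to 8 with 50 kb on either side (41.1% of all protein-coding genes), which took the LSD1 peaks from 9 to 20. It was 3 when each peak was given only to the gene with the nearest protein-coding start (21.2% of all protein-coding genes). It was also 3 when only summit windows whose words occur a median of 1 time were kept (20.4% of all protein-coding genes). The last 2 settings, the classes of window length and the shares at 50 kb were chosen after the data were seen. With 50 kb, SPI1 gained 1 peak at 1 gene (RCOR1), against 15.5% of all protein-coding genes. With 5000 bp in place of 1000 bp, 2 genes in place of 1 had an LSD1 promoter peak (13.3% of all protein-coding genes). Shared and GFI1 counts stayed at 0 under all alternatives run.

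The shares of protein-coding genes with a peak moved with the genes and windows counted. Over all GENCODE genes they were 4.19% (SPI1), 8.04% (GFI1 in THP1 cells), 13.7% (LSD1), 1.31% (GFI1 in sg-NT cells) and 0.412% (GFI1 in sg-LSD1 cells). For the gene body alone they were 4.89%, 9.18%, 14.6%, 1.4% and 0.459%, and with the limit raised to a −log10 p of 8 they were 6.74%, 11.6%, 19.7%, 1.68% and 0.574% in the same order. For LSD1 by classes of window length, they were 16.2%, 23.4%, 25.3%, 26.9% and 29.4%. No paired analysis was possible because each antibody and condition had 1 library. The weakest LSD1 peaks rested on 6 fragments, so their counting error is large.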

Other observations

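Repeated sequence was found at other LSD1 peaks than those of KDM1A and RCOR3. In the LSD1 list of sg-NT K562 cells, 1380 of 6548 summit windows (21.1%) had words of 24 bases that occurred a median of more than 1 time in the reference genome, as both of these do. These 1380 peaks had medians of 6.75 (fold) and 10.7 (−log10 p), against 7.26 and 11.5 for the other 5168 peaks. In 901 windows (13.8%), KDM1A included and RCOR3 not, the median was over 10.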
